A study of Homo sapiens with 27 samples.

Results

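Acetylated H2A.Z (acH2A.Z) was mapped by chromatin immunoprecipitation and sequencing in HL-60 cells, an established human promyelocytic leukaemia line, in 2 states that served as controls: cells treated with the vehicle DMSO, and cells labelled siNTC, which the study set beside cells labelled siMyc. All peaks that the authors' lists place on chromosomes 1 to 22 were used. These were 16489 peaks in DMSO cells and 16908 peaks in siNTC cells, or 33397 of the 147645 such peaks in the 10 lists of the series. The question put to them was how closely 2 libraries of 1 mark in 1 cell line resemble each other, which gives a measure of the spread between libraries against which the other contrasts of the series can be read. The series holds 27 libraries from HL-60 cells, among them H2A.Z and acH2A.Z lists for DMSO, DRB, ActD, siMyc and siNTC cells and tables of nascent and total RNA. DRB was used at 100 µM and ActD (actinomycin D) at 0.8 µM, and both are inhibitors of transcription. The length of the treatments is not given in the sources used here. Each group is 1 library from fixed, sonicated chromatin, so no replicates exist, no value below carries a test, and the intervals given for shares are exact binomial 95% intervals that cover the counting of peaks only. The DMSO and siNTC cells differed in the agent they received, and an effect of that agent and the spread between libraries cannot be told apart.

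H2A.Z is a variant of histone H2A that the SRCAP and TIP60 (KAT5) complexes exchange into the nucleosomes beside gene starts and at enhancers. KAT5 can acetylate H2A.Z, and the acetylated form is known from the starts of active genes. CpG dinucleotides are rare in most of the human genome and dense in CpG islands, which cover many gene starts. The RNA tables carried the identity of the line: 9 of the 10 promyelocyte markers reached 1 TPM in nascent RNA of DMSO cells, with a summed level of 1724 TPM, and the elastase gene ELANE was at 0. None of 5 erythroid and none of 6 epithelial and fibroblast markers reached 1 TPM there. Of 6 lymphoid markers, PAX5 stood at 5.34 TPM and CD79A at 1.07 TPM. No RNA table of siNTC cells was used.

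The promoters of 6 genes are shown because the count of CG dinucleotides at a start is a feature by which the lists differ further on. RIMOC1 and IARS1 had a peak at the start in the DMSO list alone, FOXO1 and DNMT3A in the siNTC list alone, and RPRD2 and BCLAF1 were among the 5 shared pairs with the highest mean tags. Each sequence is the 250 bases before the gene start on the gene's own strand, from RefSeq (GRCh38.p14), with every CG dinucleotide in capitals. The positions are chr5:41904094-41904343 (plus strand) for RIMOC1, chr9:92293698-92293947 (minus) for IARS1, chr13:40666642-40666891 (minus) for FOXO1, chr2:25341926-25342175 (minus) for DNMT3A, chr1:150363897-150364146 (plus) for RPRD2 and chr6:136289847-136290096 (minus) for BCLAF1.
RIMOC1: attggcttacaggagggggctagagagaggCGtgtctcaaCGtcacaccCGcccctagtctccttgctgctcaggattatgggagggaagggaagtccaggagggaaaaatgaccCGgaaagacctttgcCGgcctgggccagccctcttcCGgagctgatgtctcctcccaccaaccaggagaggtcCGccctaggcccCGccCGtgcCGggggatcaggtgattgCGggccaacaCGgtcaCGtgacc
IARS1: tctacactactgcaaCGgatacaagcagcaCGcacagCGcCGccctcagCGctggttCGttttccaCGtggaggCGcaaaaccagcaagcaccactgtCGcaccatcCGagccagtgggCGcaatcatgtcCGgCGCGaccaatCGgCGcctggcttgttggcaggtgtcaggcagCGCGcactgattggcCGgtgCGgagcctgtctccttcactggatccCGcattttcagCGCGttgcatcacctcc
FOXO1: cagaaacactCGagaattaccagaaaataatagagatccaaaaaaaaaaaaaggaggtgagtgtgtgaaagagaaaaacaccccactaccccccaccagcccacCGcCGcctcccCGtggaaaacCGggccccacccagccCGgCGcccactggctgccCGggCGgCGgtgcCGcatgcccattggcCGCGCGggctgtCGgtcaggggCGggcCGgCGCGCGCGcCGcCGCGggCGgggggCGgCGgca
DNMT3A: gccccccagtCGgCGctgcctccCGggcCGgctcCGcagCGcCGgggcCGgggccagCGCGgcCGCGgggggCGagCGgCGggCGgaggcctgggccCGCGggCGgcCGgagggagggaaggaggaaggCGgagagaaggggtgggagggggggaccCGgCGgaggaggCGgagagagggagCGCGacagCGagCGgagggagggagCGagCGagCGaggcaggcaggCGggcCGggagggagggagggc
RPRD2: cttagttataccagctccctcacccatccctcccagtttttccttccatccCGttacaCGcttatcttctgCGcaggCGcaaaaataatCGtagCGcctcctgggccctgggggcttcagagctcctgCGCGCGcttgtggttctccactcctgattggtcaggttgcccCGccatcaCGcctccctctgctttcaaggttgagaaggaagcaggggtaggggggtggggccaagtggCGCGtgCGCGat
BCLAF1: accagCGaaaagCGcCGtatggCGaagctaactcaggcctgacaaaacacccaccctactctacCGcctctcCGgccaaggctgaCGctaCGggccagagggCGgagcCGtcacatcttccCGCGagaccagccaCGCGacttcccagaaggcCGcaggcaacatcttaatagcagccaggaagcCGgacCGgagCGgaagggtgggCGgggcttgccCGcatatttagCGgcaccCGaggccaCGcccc

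The stretch printed for DMSO-list gene RIMOC1 held 13 CG dinucleotides and that of IARS1 held 23. Those of the siNTC-list genes held 27 at FOXO1 and 33 at DNMT3A. RPRD2 held 15 and BCLAF1 held 23. The motif CG reads the same on both strands. Counted over the full window from 250 bases before to 50 bases after the start, at least 1 CG was found in 96.0% of 33725 RefSeq promoter windows on chromosomes 1 to 22, with a median of 14 and quartiles of 4 and 28. At least 25 were found in 32.3% of them. That full window held 19 at RIMOC1, 29 at IARS1, 33 at FOXO1, 46 at DNMT3A, 16 at RPRD2 and 29 at BCLAF1. The printed genes do not bound their groups. Among the 10 highest genes of the DMSO list alone, named further on, it ran from 3 at CHD2 to 51 at ARRDC3-AS1. Among those of the siNTC list alone it ran from 26 at GAS1 to 47 at ABCC4.

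By an overlap of 1 bp, most acH2A.Z peaks of each control list were found in the other. A peak of the siNTC list overlapped 11915 of the 16489 DMSO peaks by at least 1 bp (72.3%, 71.6 to 72.9%), and a peak of the DMSO list overlapped 12038 of the 16908 siNTC peaks (71.2%, 70.5 to 71.9%). With 50% of both peaks required, these shares were 44.8% of the DMSO peaks and 43.7% of the siNTC peaks, and among peaks at least 8-fold over control they were 38.5% of the DMSO peaks and 79.2% of the siNTC peaks. The fold limit kept unlike parts of the lists, since the median fold was 30.1 in the DMSO list and 7.48 in the siNTC list. It left out most siNTC peaks and few DMSO peaks, and the part of this in the shares was not tested. The shared peaks were the strong ones. They held 92.9% of the DMSO list's tags and 89.6% of the siNTC list's tags, where the tag value is the authors' normalized tag count of a peak. The strongest shared peaks lay over the start or end of ARID2, RPRD2, BCLAF1, MYL12B and KANSL1.

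The peak at ARID2, which encodes a subunit of a SWI/SNF chromatin remodelling complex, had 7487 tags over 9261 bp in DMSO cells and 3725 tags over 5814 bp in siNTC cells. The peak at RPRD2, whose protein binds the tail of RNA polymerase II, had 7681 tags in DMSO cells and 545 tags in siNTC cells. BCLAF1, a gene for a transcription and splicing factor, had 7018 tags in DMSO cells and 839 tags in siNTC cells. MYL12B, a gene for a myosin light chain, had 4758 tags in DMSO cells and 1927 in siNTC cells. KANSL1, for a subunit of a histone H4 acetyltransferase complex, had 3942 tags in DMSO cells and 2279 in siNTC cells. All 5 were higher in DMSO cells, by log2 ratios from 0.79 at KANSL1 to 3.82 at RPRD2. The median of all shared pairs was 0.90, so KANSL1 lay below it. The 5 were picked by mean tags as deposited, a choice that favours pairs with high DMSO tags. All 5 were also in the DRB, ActD and siMyc lists of acH2A.Z.

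How often a peak was shared depended on its tags. In the DMSO list the share climbed from 34.4% in the 10% of peaks with the fewest tags (17.1 to 25.4 tags) to 97.9% in the 10% with the most (1069 to 7681 tags). In the siNTC list it climbed from 20.3% (4.57 to 7.77 tags) to 93.7% (630.4 to 5454 tags). Near a gene, here within 1000 bp of a RefSeq start, or of either end where no start was listed, lay 58.9% of the DMSO peaks and 60.9% of the siNTC peaks. Above the list's median tag count these shares were 84.5% in DMSO cells and 88.4% in siNTC cells, and below it 33.3% in DMSO cells and 33.4% in siNTC cells.

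**Figure D1:**
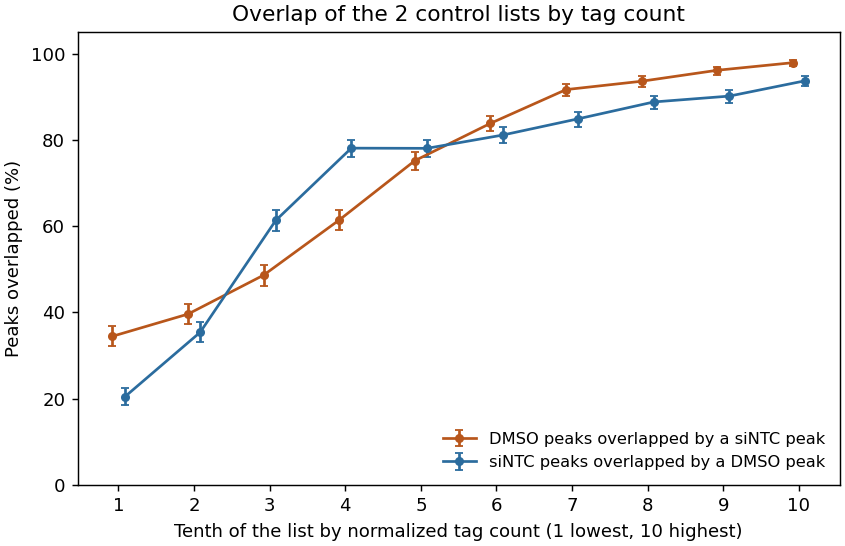
The share of peaks (percent, vertical axis) that overlap a peak of the other control list by at least 1 bp, for each 10% of the DMSO and the siNTC list by normalized tag count, with exact 95% binomial intervals as bars. The DMSO list runs from 34.4% to 97.9% and the siNTC list from 20.3% to 93.7%.

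The lists differed in their lowest peaks and in width. The lowest DMSO peak had 17.1 tags and the lowest siNTC peak 4.57 tags, and 4437 siNTC peaks (26.2%) lay under the lowest DMSO value. The tag columns of the files give the depth of the smaller library of each comparison, which the headers make the control, as 3515000 tags for DMSO cells and 18704000 tags for siNTC cells if the normalized count is per 10000000 tags, so the siNTC control was 5.32 times as deep. DMSO peaks were wider, with a median of 1766 bp against 1308 bp in siNTC cells, and the widest spanned 18880 bp in DMSO cells and 9105 bp in siNTC cells. Among overlapping pairs, 75.6% were wider in DMSO cells and 23.9% in siNTC cells, with a median log2 width ratio of 0.58. In the median pair the siNTC peak lay wholly inside the DMSO peak and covered 62.1% of it. In all, the DMSO peaks covered 33.9 Mb and the siNTC peaks 23.6 Mb.

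At shared peaks the control lists ordered their tag counts differently. Each DMSO peak was paired with the siNTC peak that shared the most bases with it, which gave 11915 pairs. Across these pairs Spearman's rho of the tag counts was 0.21, that of tags per kb was 0.09 and that of the widths was 0.42. The points are peaks of the same 2 libraries, not replicates. Of the 1000 most tagged DMSO peaks 98.1% were found somewhere in the siNTC list, and of the 1000 most tagged siNTC peaks 95.3% were found in the DMSO list, but only 124 DMSO peaks (12.4%) overlapped a peak that was also among the siNTC list's first 1000.

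Tags were higher in DMSO cells at the median pair, by a log2 ratio of 0.90 with quartiles of -0.85 and 2.47. A pair was at least 2-fold higher in DMSO cells as deposited in 48.5% of cases and at least 2-fold lower in 23.4%. After the median of 0.90 was set to 0, 33.3% of pairs were at least 2-fold higher in DMSO cells and 34.5% at least 2-fold lower, so that 32.2% stayed within 2-fold. By chromosome the median log2 ratio ran from 0.01 on chromosome 8 to 1.33 on chromosome 6. The rho ran from 0.02 on chromosome 10 to 0.41 on chromosome 18. Near genes rho was -0.03 over 8965 pairs, and away from genes it was 0.22 over 2950 pairs.

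The extreme pairs ran both ways. By rule these were the 5 highest and 5 lowest ratios among pairs above the median of mean tag count, so their size is a description of the tails. The peak at ZNF217, for a zinc finger protein, had 3560 tags in DMSO cells over 9379 bp and 14.6 tags in siNTC cells over 654 bp. GNAI3, for a G protein subunit, had 1658 tags in DMSO cells and 7.31 in siNTC cells, and the long non-coding RNA gene DLEU2 had 4368 in DMSO cells and 23.9 in siNTC cells. At LOC105374748 the values were 4077 in DMSO cells and 18.1 in siNTC cells. In each of these a wide DMSO peak covered a short siNTC one.

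At the other end, short DMSO peaks lay in wide and strong siNTC peaks. CABLES1, for a protein that binds cyclin-dependent kinases, had 29.8 tags over 756 bp in DMSO cells and 2859 tags over 3289 bp in siNTC cells. TRIB1, for a pseudokinase that leads C/EBP alpha to degradation, had 61.4 tags in DMSO cells and 5454 tags, the most of any peak of that list, in siNTC cells. BCL11A, the gene of a repressor of fetal globin, supplied 2 pairs, since DMSO peaks of 23.8 and 24 tags lay in 1 siNTC peak of 2227 tags and 8881 bp. A DMSO peak of 17.1 tags at 2187 bp from an end of CTIF lay in a siNTC peak of 1964 tags. None of the 5 DMSO peaks passed 61.4 tags, and each of the 4 siNTC peaks reached at least 1964.

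The distribution of tag density set the siNTC list apart from the DMSO list. In siNTC cells the peaks fell into 2 humps of tags per kb, with the fewest peaks between them near 45.3 tags per kb (5.5 on the log2 scale), a limit chosen after the histogram was seen. The dense band held 9592 siNTC peaks (56.7%), of which 86.3% lay near a gene, and the sparse band held 7316 (43.3%), of which 27.6% lay near a gene. DMSO peaks showed no such gap, with 13037 (79.1%) above the same limit. The lowest density of any peak was 25.9 tags per kb in DMSO cells and 8.54 in siNTC cells. The low siNTC hump was highest from 3.5 to 4.5 on the log2 scale, where the DMSO list holds no peak. A low hump could therefore not show in the DMSO list, and its dense share is bound to that floor. The tags of the 8306 pairs whose siNTC peak was dense did not rank alike (rho 0.03) and had a median log2 ratio of 0.01. The 3609 pairs with a sparse siNTC peak ranked better (rho 0.45) and were higher in DMSO cells by a median of 2.94 on the log2 scale.

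**Figure D2:**
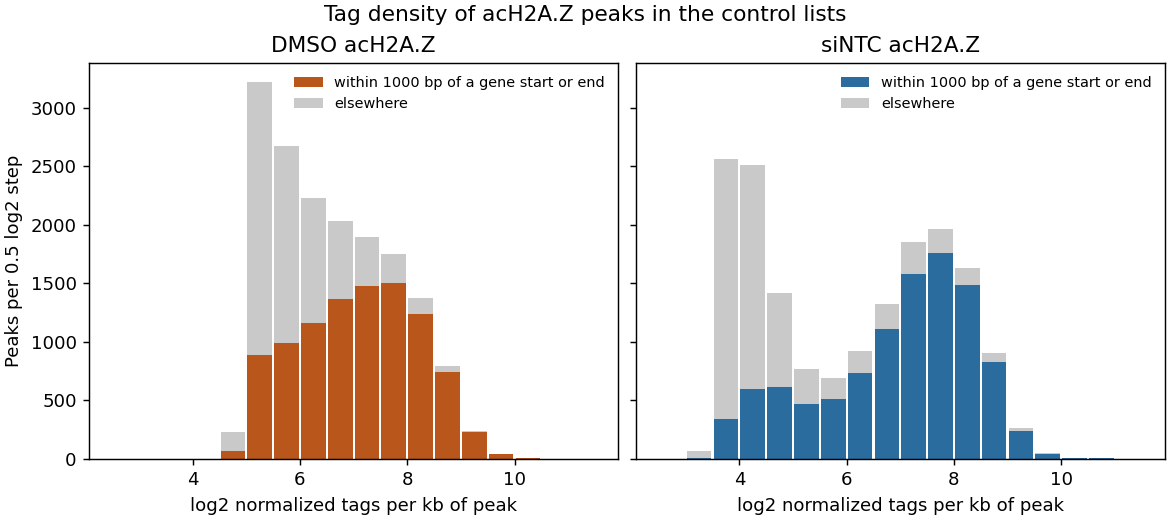
Histograms of tag density (log2 of normalized tags per kb of peak, horizontal axis) against the number of peaks in the DMSO list and the siNTC list, split by whether a peak lies within 1000 bp of a gene. The siNTC list has 2 humps on either side of 5.5. The DMSO list shows no such gap, and it holds no peak under 25.9 tags per kb.

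The control tags that the authors' files give for each peak also differed. On the scale of the normalized tag count the median peak held 4.84 control tags in the DMSO list and 15.2 control tags in the siNTC list. Across peaks, normalized tags and control tags ranked together with a rho of 0.72 in the DMSO list and 0.96 in the siNTC list. Per kb, dense DMSO peaks held a median of 3.58 control tags and sparse DMSO peaks 2.26, while dense siNTC peaks held 20.7 and sparse siNTC peaks 2.99. Of the DMSO peaks, 34.8% stood at the column's lowest value of 0.5 control tags, against 1.29% of the siNTC peaks. With control tags subtracted, the rho of the 11915 pairs was 0.21 and the median log2 ratio 1.04.

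Set beside other pairs of acH2A.Z lists, the 2 controls ranked their shared peaks less alike than either inhibitor list and the DMSO list did. The rho was 0.60 between the DRB and DMSO lists (15541 pairs), 0.72 between ActD and DMSO (14361 pairs) and 0.65 between ActD and DRB (19857 pairs), against 0.21 between DMSO and siNTC. It was 0.10 between siMyc and siNTC (8750 pairs). The siMyc list lay near its floor, with a median peak of 15.4 tags and a lowest of 6.83, against a median of 103 in the siNTC list. The part of this in the siMyc values was not tested. The pairs share lists with each other, so these values are not independent, and no test of their differences exists with 1 library a group. The share of pairs within 2-fold of their median ratio was 44.8% for DRB and DMSO, 53.2% for ActD and DMSO, 41.8% for ActD and DRB, 32.2% for DMSO and siNTC and 16.2% for siMyc and siNTC. Peaks among the first 1000 of both lists numbered 337 for DRB and DMSO, 648 for ActD and DMSO, 124 for DMSO and siNTC and 97 for siMyc and siNTC.

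The inhibitor lists were longer than the DMSO list, and the siMyc list was shorter than the siNTC list. DRB peaks, 28552 in number, covered 95.2% of the DMSO peaks, and 54.4% of DRB peaks were themselves overlapped. The 30349 ActD peaks covered 85.0% of the DMSO peaks, and 47.3% of them were overlapped. The 14264 siMyc peaks covered 48.6% of the siNTC peaks, and 61.3% of them were overlapped. The median log2 tag ratio was 0.03 for DRB over DMSO, -0.63 for ActD over DMSO and -1.99 for siMyc over siNTC, so the 0.90 between the controls exceeded in size the first and the second of these but not the third. The siMyc ratio comes from a list with a median peak of only 15.4 tags.

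**Figure D3:**
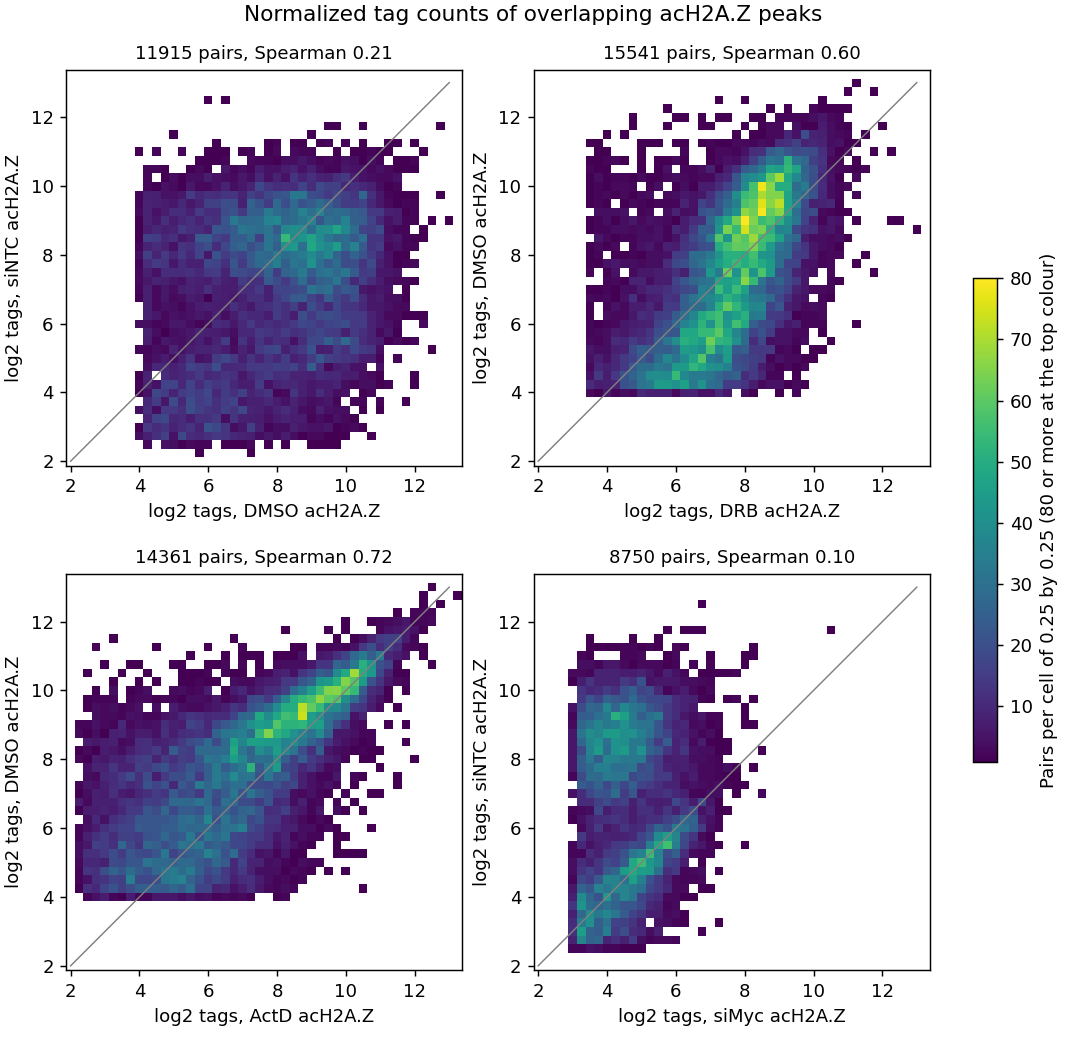
Normalized tag counts (log2, both axes) of overlapping acH2A.Z peaks in 4 pairs of lists, with the number of pairs in each cell as shade. The DMSO and siNTC panel has a rho of 0.21 and spreads over the whole square, while the DRB and DMSO panel (0.60) and the ActD and DMSO panel (0.72) follow a diagonal. The siMyc and siNTC panel (0.10) has 1 group of pairs along the diagonal and 1 well above it.

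The sparse siNTC peaks ranked like the other acH2A.Z lists, and the dense ones did not. Over pairs whose siNTC peak was sparse, rho with the siNTC list was 0.61 for siMyc (3845 pairs), 0.55 for DRB (5199 pairs), 0.45 for DMSO (3609 pairs) and 0.39 for ActD (4051 pairs). Over pairs whose siNTC peak was dense, it was 0.01 for siMyc (4905 pairs), 0.24 for DRB (9321 pairs), 0.03 for DMSO (8306 pairs) and -0.01 for ActD (7974 pairs). The median log2 ratio of siMyc over siNTC tags was 0.14 at sparse and -3.91 at dense siNTC peaks. The siNTC H2A.Z list ran the other way, with a rho of 0.58 at dense (1551 pairs) and 0.14 at sparse siNTC acH2A.Z peaks (578 pairs). Cut at the same density of DMSO peaks, the rho of ActD with DMSO was 0.71 at dense and 0.12 at sparse peaks, and that of DRB with DMSO was 0.53 at dense and 0.28 at sparse peaks. The bands were cut on the siNTC or DMSO values themselves, which narrows their range and moves the median ratios, so these values describe the lists and test nothing.

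The list that ranked most like siNTC acH2A.Z was made with the other antibody in the same cells. Against the H2A.Z list of siNTC cells its tag counts had a rho of 0.70 over 2081 peaks, and against the H2A.Z list of siMyc cells a rho of 0.48 over 3780 peaks. Against the other 3 acH2A.Z lists, rho lay between 0.14 for siMyc and 0.19 for DRB. The DMSO acH2A.Z list ranked most like ActD acH2A.Z (0.72) and DRB acH2A.Z (0.60), with 0.34 against the H2A.Z list of DMSO cells over 1094 peaks and -0.17 against that of siNTC cells over 1871 peaks. For H2A.Z itself the DMSO and siNTC lists hardly met: 8.37% of 1254 DMSO peaks and 1.54% of 6890 siNTC peaks were shared.

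Peaks found in 1 control list only were mostly weak, narrow and away from genes, and most of those of the DMSO list were found again in each inhibitor list. The 4574 DMSO-only peaks (27.7%) had a median of 43.4 tags and 891 bp, and 16.2% lay near a gene, against 288 tags, 2350 bp and 75.2% for shared DMSO peaks. Of them 86.5% were in the DRB list, 80.5% in the ActD list and 17.3% in the siMyc list, and 183 (4.00%) were in none of these. For shared DMSO peaks the shares were 98.6% in the DRB list, 86.8% in the ActD list and 59.7% in the siMyc list. The 4870 siNTC-only peaks (28.8%) had a median of 11.4 tags and 630 bp, and 29.2% lay near a gene, against 187 tags, 1547 bp and 73.8% for shared siNTC peaks. Of them 64.3% were in the DRB list, 25.8% in the ActD list and 22.7% in the siMyc list, and 1594 (32.7%) were in none. For shared siNTC peaks the shares were 98.5% in the DRB list, 86.8% in the ActD list and 59.0% in the siMyc list. The lowest peak had 11.2 tags in the DRB list, 6.83 in the siMyc list and 4.06 in the ActD list. The part of these floors in the shares was not tested. Of the siNTC-only peaks 2869 (58.9%) lay under the lowest DMSO tag count, a level at which the DMSO list holds no peak, and 2001 lay at or above it. Within 5000 bp of a peak of the other list lay 21.7% of the peaks of either kind.

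The strongest DMSO-only peaks lay over a gene start or end. CHASERR, a long non-coding RNA gene beside CHD2, had 4031 tags in DMSO cells and no overlapping siNTC peak. RIMOC1, for a regulator of membrane trafficking in mitophagy, had 2972 tags, and IARS1, the cytosolic isoleucyl-tRNA synthetase gene, had 2770.1. A peak at 1 start of PCNA, the sliding clamp of DNA replication, had 2782 tags, while a separate siNTC peak of 413 tags lay at another start of the gene. ELF1, for an ETS family transcription factor, had 2545 tags, and APEX1, for a base excision repair endonuclease, had 2016. The long non-coding RNA genes DLGAP1-AS2 and GIHCG had 2509.8 and 2153 tags. All 8 were in the DRB list, at 219 to 2325 tags, and in the ActD list, at 1080 to 4419 tags. Among all DMSO-only peaks, 86.5% were in the DRB list and 80.5% in the ActD list.

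The strongest siNTC-only peaks also lay at or near gene starts. FOXO1, a forkhead factor gene, had 1647 tags in siNTC cells, and its DRB and ActD peaks had 264 and 64.5 tags. DNMT3A, a DNA methyltransferase gene often mutated in myeloid leukaemia, had 1477 tags in siNTC acH2A.Z, 528 in siNTC H2A.Z and 698 in siMyc H2A.Z, against 61.6 tags in DRB acH2A.Z and none in ActD acH2A.Z. SMAD6, an inhibitor of BMP signalling, had 1261 tags and ABCC4, a gene for an exporter, had 1244. TNRC6C, of the microRNA silencing complex, had 1192 tags, GRHL1, a grainyhead factor gene, had 1171, and ZFP64, for a zinc finger protein, had 1162. The last of the 8 had 1217 tags at 2912 bp from a start of MTCL2. All 8 were in the DRB list at 61.6 to 731 tags, each under its siNTC value, and none passed 64.5 tags in the ActD list. Among all siNTC-only peaks, 64.3% were in the DRB list and 25.8% in the ActD list. The 8 were picked for high siNTC tags, so lower values in other lists follow in part from that choice.

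Counted by genes, most of those marked in either list were marked in both. Of 26246 genes with a RefSeq start on these chromosomes, 9777 (37.3% of those tested) had a peak within 1000 bp of a start in both lists, 577 (2.20%) in the DMSO list alone and 1130 (4.31%) in the siNTC list alone. Both lists had a peak at 85.1% (84.5 to 85.8%) of the 11484 genes with one in either, and 14762 genes (56.2% of those tested) had one in neither. That 85.1% was 52.5% with peaks at least 8-fold over control, a limit that left out most siNTC peaks and few DMSO peaks. It was 56.2% over the 8244 most tagged peaks of each list. The genes marked in both were 94.4% of the 10354 genes of the DMSO list and 89.6% of the 10907 genes of the siNTC list. A gene's value in a list was that of its most tagged peak at any of its starts. Its DMSO and siNTC peaks therefore need not overlap, as at PCNA. Over the 9777 genes the tag counts had a rho of -0.03, and the median log2 ratio was 0.82. Relative to that median gene, 33.1% of them were at least 2-fold higher in DMSO cells and 33.2% at least 2-fold lower.

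Among genes with a peak in 1 list only, by the rule of the 10 highest, the peak itself was touched by the other list away from the start in 5 of the 10 DMSO genes and 4 of the 10 siNTC genes. CHD2, for a chromatin remodeller, had 5451 tags in DMSO cells within 10489 bp, and ANXA2R-OT1, ARRDC3-AS1, LINC01232 and ZNF217 likewise lay in wide DMSO peaks that a siNTC peak touched elsewhere. The other 5 DMSO genes were CHASERR, RIMOC1, PCNA-AS1, IARS1 and DLGAP1-AS2, which no siNTC peak touched. Of the 10 siNTC genes, KCTD12 had 1991 tags, CKB, the brain-type creatine kinase gene, had 1531 and GAS1, a growth arrest gene, had 1489, and a DMSO peak touched each of these and that of LOC124904336 away from the start. FOXO1, DNMT3A, SMAD6, ABCC4, LOC102724149 and TNRC6C made up the rest, the pair ABCC4 and LOC102724149 sharing 1 peak.

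Genes marked in 1 list only differed in CpG and in RNA. The median promoter window held 29 CG in genes marked in both lists, 17 in DMSO-only genes, 30 in siNTC-only genes and 5 in genes with no peak. In nascent RNA of DMSO cells, 64.2% of DMSO-only genes reached 1 TPM and 40.9% of siNTC-only genes, against 81.5% of genes marked in both and 6.40% of genes marked in neither. In nascent RNA of untreated cells the shares were 44.2% of DMSO-only genes, 14.7% of siNTC-only genes, 57.1% of genes marked in both and 1.88% of genes marked in neither. RIMOC1 stood at 4.63 TPM and IARS1 at 17.1 TPM in nascent RNA of DMSO cells, and FOXO1 at 0.5 TPM and DNMT3A at 13.7 TPM. RNA values could be matched to 18158 of the 26246 genes.

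Tags followed promoter CpG in siNTC cells and not in DMSO cells. Over genes, the rho of tags with the CG count was -0.07 in the DMSO list (10354 genes) and 0.48 in the siNTC list (10907 genes). Among genes marked in both lists with 15 to 19 CG the median was 604 tags in DMSO cells and 119 in siNTC cells, a median log2 ratio of 2.20. With 30 to 34 CG it was 491 tags in DMSO cells and 309 in siNTC cells, a ratio of 0.68. With 40 to 77 CG it was 327 tags in DMSO cells and 525 in siNTC cells, a ratio of -0.75. The share of all genes marked in the siNTC list alone was 1.10% with up to 4 CG and 11.3% with 40 to 77, while for the DMSO list alone it peaked at 3.73% with 20 to 24 CG and was 0.948% with 40 to 77.

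The other lists held this relation only in part. In acH2A.Z the rho with CG was -0.05 for DRB, -0.07 for ActD and -0.11 for siMyc. In H2A.Z it was -0.07 for DMSO, -0.06 for DRB and 0.08 for ActD, but 0.53 for siNTC (1758 genes) and 0.41 for siMyc (2881 genes). The lists with the higher values thus came from siNTC or siMyc cells, and among the lists of those cells siMyc acH2A.Z was the exception.

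The control tags moved the same way. At the same gene peaks the rho of control tags per kb with CG was -0.01 in the DMSO list and 0.53 in the siNTC list. On the scale of the normalized count the median DMSO gene peak held 3.41 control tags with up to 4 CG and 9.10 with 40 to 77 CG, while the median siNTC gene peak held 4.06 and 53.1. The part of the control in the relation of siNTC tags to CG was not tested beyond the following values. The authors' fold over control was nearly level within the siNTC list, at a median of 7.46 with up to 4 CG and 9.13 with 40 to 77 CG, and its rho with CG was 0.11. After control tags were subtracted the rho of siNTC tags with CG was 0.47. Tags and control tags of siNTC peaks ranked together with a rho of 0.96, and the fold was nearly level. The subtraction could therefore hardly change the rank order, and this value does not set the part of the control apart.

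Tags followed nascent RNA in DMSO cells and not in siNTC cells. With nascent RNA of DMSO cells rho was 0.35 for the DMSO list over 9085 genes and 0.04 for the siNTC list over 9517 genes. With RNA of untreated cells it was 0.28 for the DMSO list and 0.04 for the siNTC list, and with total RNA 0.25 for the DMSO list and 0.05 for the siNTC list. The relation was not particular to the DMSO list. With nascent RNA of DMSO cells, the ActD list of acH2A.Z had a rho of 0.29 (8730 genes). The DRB list had 0.24 (10103 genes) and the siMyc list 0.12 (5226 genes). With the genes in 5 equal groups by nascent RNA, the lowest (up to 1.20 TPM) had a median of 282 tags in DMSO cells and 281 in siNTC cells, and the highest (from 29.4 TPM) had 829 in DMSO cells and 273 in siNTC cells. The median CG count was 28 or 29 in each of the 5. Whether the tags of siNTC cells follow their own RNA was not tested, since no RNA table of those cells was used.

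**Figure D4:**
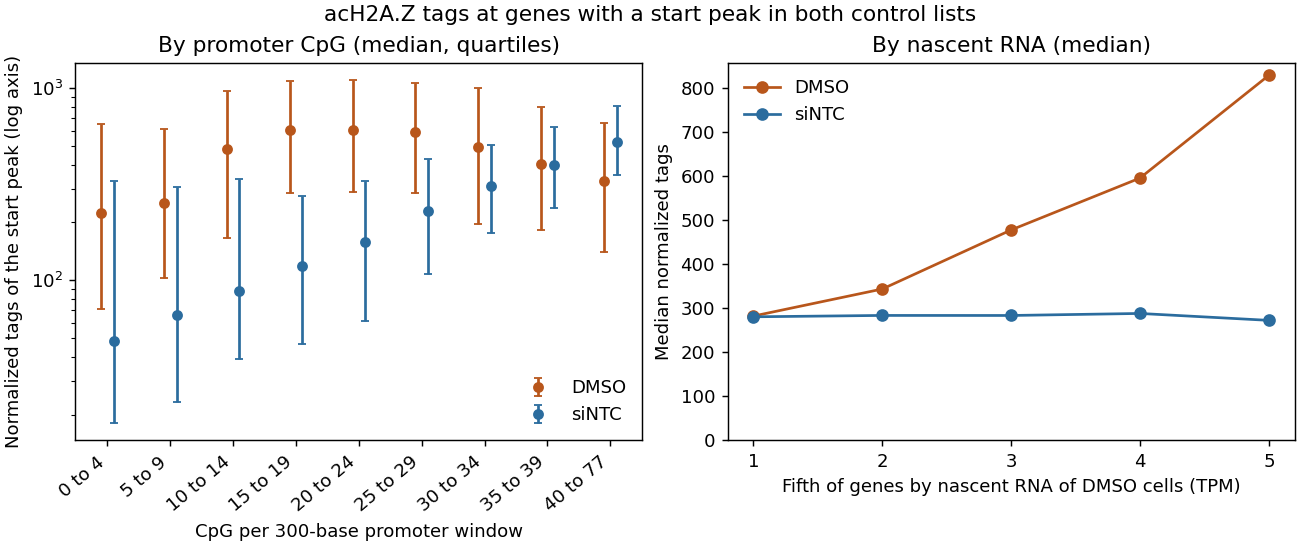
Normalized tags (vertical axes, log axis on the left and linear on the right) at genes with a start peak in both control lists, by CG count of the promoter window (left, median with quartiles) and in 5 groups by nascent RNA in DMSO cells (right, median). With 40 to 77 CG the medians are 327 tags in DMSO cells and 525 in siNTC cells, and from the lowest to the highest RNA group the DMSO median runs from 282 to 829 while the siNTC median stays between 273 and 288.

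Histone, mitosis and ribosomal protein genes were mostly higher in DMSO cells relative to the median gene. Values in the following are log2 ratios of tags, DMSO over siNTC, less the 0.82 of the median gene, and the background for a 2-fold difference is the 33.1% higher and 33.2% lower given above. Genes with no listed start were counted at either end, and the DMSO and siNTC peaks of a gene need not overlap, as at PCNA. Over all genes the ratio also varied with CG count and RNA, which that background leaves aside. Members with a start peak in both lists had a median of 12.5 CG in histone, 22 in ribosomal protein and 23 in mitosis genes. It was 33 for early response, 34 for S-phase, 34.5 for myeloid and 36.5 for p53 and apoptosis genes. Over all genes marked in both lists it was 29. The part of CG count and RNA in the values below was not tested. For peaks in 1 list only, the background is 2.59% of protein-coding genes with a listed start in the DMSO list alone. It is 5.28% in the siNTC list alone, and 51.8% had a peak in both lists. All 12 replication-dependent histone genes with a peak in both lists were at least 2-fold higher, with a median of 4.00. HIST2H2BE had 2253 tags in DMSO cells and 10.0 in siNTC cells. HIST1H2BK had 2396 tags in DMSO cells and 18.1 in siNTC cells. HIST1H2BJ had 2396 tags in DMSO cells and 14.6 in siNTC cells. Neighbouring histone genes can share 1 peak, and such values are not separate observations. HIST2H2AC and HIST1H3D had 2253 and 1268 tags in DMSO cells and no siNTC peak, and 2 of the 16 had a peak in neither list.

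Of 17 G2 and mitosis genes marked in both lists 16 were at least 2-fold higher and none lower, with a median of 2.56. AURKA, a mitotic kinase gene, had 2888 tags in DMSO cells and 63.4 in siNTC cells. TPX2, the gene of its activator, had 2272 tags in DMSO cells and 129.5 in siNTC cells. KIF11, for a spindle kinesin, had 1828 tags in DMSO cells and 395 in siNTC cells. All 3 were higher in DMSO cells. CCNB1, PLK1 and UBE2C, which drive entry to and exit from mitosis, had 1002, 223 and 187 tags in DMSO cells and no siNTC peak. Of 26 cytosolic ribosomal protein genes marked in both lists 18 were at least 2-fold higher and none lower, with a median of 2.37. These genes encode the proteins of the ribosome and are among the most transcribed. RPS3 had 2124 tags in DMSO cells and 113 in siNTC cells. RPS27A had 2063 tags in DMSO cells and 227 in siNTC cells. RPS12 had 1919 tags in DMSO cells and 147 in siNTC cells, while RPL5 had 761 in DMSO cells and no siNTC peak.

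S-phase genes and MYC targets of ribosome biogenesis lay nearer to the median gene. Of 24 S-phase genes 10 were at least 2-fold higher and 6 lower, with a median of 0.27. PCNA had 2782 tags in DMSO cells and 413 in siNTC cells at its highest peaks. MCM3, of the replicative helicase, had 2426 tags in DMSO cells and 195 in siNTC cells. TYMS, for thymidylate synthase, had 1871 tags in DMSO cells and 1176 in siNTC cells, and TK1 had 55.5 in DMSO cells and no siNTC peak. MYC targets gave 9 of 20 at least 2-fold higher and 2 lower (median 0.71). POLR1A, the largest subunit of RNA polymerase I, had 3500.3 tags in DMSO cells and 148 in siNTC cells. NOP58, of the box C/D snoRNP, had 2473 tags in DMSO cells and 94.6 in siNTC cells. GNL3, for nucleostemin, had 1690.1 tags in DMSO cells and 655 in siNTC cells. All 3 were higher in DMSO cells. NPM1, for the nucleolar protein nucleophosmin, had 1502 tags in DMSO cells and 32.7 in siNTC cells. TERT, the telomerase reverse transcriptase gene, had a siNTC peak of 863 tags and none in DMSO cells, and RRP12 a DMSO peak of 57.6 tags and none in siNTC cells.

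Early response genes were mostly lower in DMSO cells relative to the median gene. Of 22 early response genes marked in both lists 16 were at least 2-fold lower and 3 higher, with a median of -2.10. MYC had 709.6 tags over 4824 bp in DMSO cells and 3449 tags over 1791 bp in siNTC cells, a relative ratio of -3.10. HL-60 cells are known to carry amplified MYC, and the control tags there were also high, at 93.0 in the DMSO list and 256 in the siNTC list on the same scale. FOS, JUN and FOSL2, which encode AP-1 subunits, and EGR1 were likewise lower in DMSO cells. FOS had 64.9 tags in DMSO cells and 451 in siNTC cells. JUN had 214 tags in DMSO cells and 563 in siNTC cells. EGR1, for a zinc finger factor of the same response, had 181 tags in DMSO cells and 553 in siNTC cells. FOSL2 had 369.5 tags in DMSO cells and 1621 in siNTC cells. MCL1, a survival gene, ran the other way, with 2206 tags in DMSO cells and 407 in siNTC cells. JUNB and PPP1R15A had DMSO peaks alone, of 343 and 263 tags, and KLF4 and FOSB siNTC peaks alone, of 268 and 50.9 tags.

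Of 14 NF-kappa-B and inflammatory genes 9 were at least 2-fold lower and none higher, with a median of -1.75. REL, for an NF-kappa-B subunit, had 2150.2 tags in DMSO cells and 693 in siNTC cells. NFKBIE, for an inhibitor of the factor, had 452 tags in DMSO cells and 865 in siNTC cells. TNFAIP3, for the deubiquitinase A20, had 246 tags in DMSO cells and 888 in siNTC cells, while TNF had 19.6 in DMSO cells alone and IL6 7.26 in siNTC cells alone. Among 16 p53 targets and apoptosis regulators, 10 stood at least 2-fold below the median gene and 2 above it (median -1.30). CASP8, an initiator caspase gene, had 1812 tags in DMSO cells and 43.7 in siNTC cells. BCL2, the survival gene, had 311 tags in DMSO cells and 1205 in siNTC cells. PMAIP1, for the death-promoting NOXA, had 885 tags in DMSO cells and 724 in siNTC cells. SESN2 had 477 tags in DMSO cells alone, and GADD45A, BBC3 and GADD45B had 654, 361 and 198 in siNTC cells alone.

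Of 11 myeloid transcription factor and receptor genes 6 were at least 2-fold lower and 2 higher, with a median of -1.44. CEBPD had 91.5 tags in DMSO cells and 2202 in siNTC cells. MYB had 503 tags in DMSO cells and 1600 in siNTC cells. Both were lower in DMSO cells, as were CEBPB and CEBPA by smaller ratios. CEBPB had 596 tags in DMSO cells and 1409 in siNTC cells. CEBPA had 243 tags in DMSO cells and 373 in siNTC cells. RUNX1 and FLT3, named after their values were seen, had 29.8 and 17.7 tags in DMSO cells and 1242 and 926 in siNTC cells. SPI1, the gene of the myeloid factor PU.1, had 231 tags in DMSO cells and a siNTC peak of 500 bp with 7.13. GATA2 had 585 tags in DMSO cells alone, and KIT and CEBPE had 54.4 and 12.7 in siNTC cells alone.

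Of 15 promyelocyte granule genes 9 had a peak in neither list, 4 in the DMSO list alone, 1 in the siNTC list alone and 1 in both. Of protein-coding genes with a listed start 40.4% had a peak in neither list, 2.59% in the DMSO list alone, 5.28% in the siNTC list alone and 51.8% in both. Of all genes, non-coding ones included, 56.2% had one in neither. SRGN, for the granule proteoglycan serglycin, had 1376 tags, MPO, for myeloperoxidase, 326 and RNASE2 93.2, all in DMSO cells alone. CTSG, for cathepsin G, had 178 tags in DMSO cells and 17.8 in siNTC cells, and CFD had 157 in siNTC cells alone. ELANE had none in either, and stood at 0 TPM in nascent RNA of DMSO cells. CTSG stood at 514 TPM there and MPO at 170 TPM. Peaks and RNA did not go together throughout the list. PRTN3 stood at 494.84 TPM, PRG2 at 64.01 TPM and LYZ at 32.81 TPM in the same RNA, with a peak in neither list. RNASE3 and EPX, also without a peak, reached 1 TPM, while LTF, CAMP and LCN2 without a peak stood at 0 TPM.

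The genes that make and read the mark were split. Of 22 H2A.Z, SRCAP and TIP60 complex genes marked in both lists 6 were at least 2-fold higher in DMSO cells and 6 lower, with a median of -0.05. The H2A.Z genes H2AFZ and H2AFV had 2215 and 1671 tags in DMSO cells and 194 and 539 in siNTC cells. ANP32E, for a chaperone that removes H2A.Z, had 4523 tags in DMSO cells and 452 in siNTC cells. KAT5 had 532 tags in DMSO cells and 215 in siNTC cells, and RUVBL2, an ATPase gene of both complexes, had 571 in DMSO cells and no siNTC peak.

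Of 16 housekeeping genes 9 were at least 2-fold higher and 1 lower, with a median of 1.33. EEF1A1 had 3729 tags in DMSO cells and 592 in siNTC cells. TUBB, a beta tubulin gene, had 3041 tags in DMSO cells and 24.8 in siNTC cells. B2M, of the MHC class I complex, had 2943 tags in DMSO cells and 45.6 in siNTC cells. Both were far higher in DMSO cells, and ACTB, the beta actin gene, was not. GAPDH had 492 tags in DMSO cells and 102 in siNTC cells, while ACTB had 90.4 in DMSO cells and 86.2 in siNTC cells. At snoRNA host genes, 9 of 14 stood at least 2-fold above the median gene and 1 below (median 1.43), RACK1 having 2415 tags in DMSO cells and 151 in siNTC cells. SNHG1 had 1975 tags in DMSO cells and 13.4 in siNTC cells. SNHG6 had 1740.3 tags in DMSO cells and 361 in siNTC cells. SNHG29 had 669.6 in DMSO cells alone.

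Of 11 nuclear long non-coding RNA genes 3 were at least 2-fold higher and 5 lower (median -0.79), with MALAT1 at 2369 tags in DMSO cells and 124 in siNTC cells. The other named genes fell on either side. OIP5-AS1 had 1898 tags in DMSO cells and 288 in siNTC cells. MIR17HG, host of the miR-17 cluster, had 664 tags in DMSO cells and 2434 in siNTC cells. Of 13 cholesterol and interferon genes 6 were higher and 1 lower (median 0.93), with SREBF2 at 1375 tags in DMSO cells and 669.9 in siNTC cells. SREBF2 encodes a regulator of sterol synthesis, and SQLE and IDI1 encode enzymes of it. SQLE had 949 tags in DMSO cells and 282 in siNTC cells. IDI1 had 919.6 tags in DMSO cells and 306 in siNTC cells. HMGCS1 had 1379 tags in DMSO cells alone, and MX1, IFIT2 and OAS1 had 143, 15.1 and 7.77 in siNTC cells alone.

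**Figure D5:**
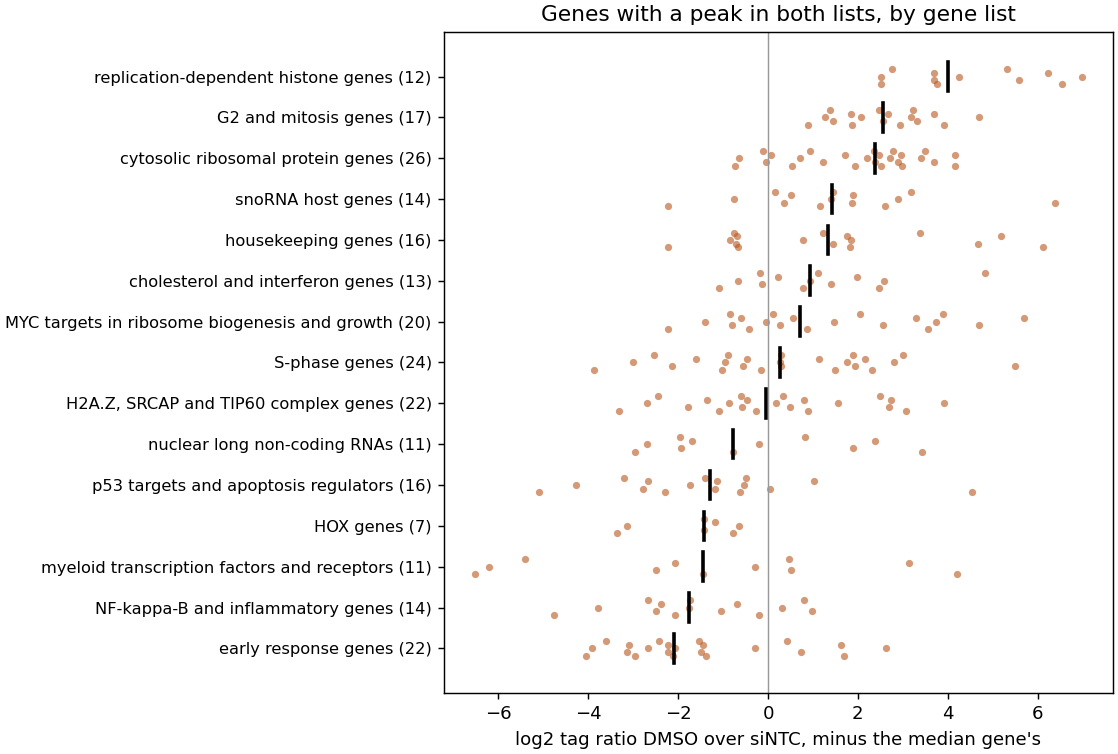
Log2 ratio of tags, DMSO over siNTC, less that of the median gene (horizontal axis), for genes with a peak in both lists, by gene list (rows), with each gene as a point and the list's median as a bar. The histone median is 4.00 and the G2 and mitosis median 2.56, and the early response median is -2.10.

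Of 20 HOX genes 7 had a peak in both lists, 4 in the siNTC list alone and 9 in neither. Of protein-coding genes with a listed start 51.8% had a peak in both lists, 5.28% in the siNTC list alone and 40.4% in neither. Of the 7 HOX genes none was at least 2-fold above the median gene in DMSO cells and 5 were below. As deposited, HOXA11 and HOXA13 had similar tags in both lists, though relative to the median gene HOXA11, at -1.17, was among the 5 below. HOXA11 had 642 tags in DMSO cells and 819 in siNTC cells. HOXA13 had 376 tags in DMSO cells and 333 in siNTC cells. HOXD8, HOXC10, HOXC8 and HOXA10 had 165, 102, 72.6 and 57.9 tags in siNTC cells alone. A peak in neither list was found for 9 of 11 erythroid, 11 of 16 lymphoid, 13 of 15 epithelial and fibroblast, and 10 of 13 neuronal and germline genes, HBB and EPCAM among them. Of all genes with a listed start 56.2% had a peak in neither list, and of the protein-coding ones 40.4%. Where members of these lists were marked, values ran both ways. KLF1, an erythroid factor gene, had 106 tags in DMSO cells and 294 in siNTC cells. CD4 had 1100.2 tags in DMSO cells and 122 in siNTC cells. PAX5, the B cell factor gene, had 149.6 tags in DMSO cells and 381 in siNTC cells. These lymphoid genes thus fell on either side. ACTA2 had 58.6 tags in DMSO cells and 307 in siNTC cells. NEUROG2 and PAX6, which encode neural transcription factors, were lower in DMSO cells. NEUROG2 had 30.9 tags in DMSO cells and 595 in siNTC cells. PAX6 had 18.1 tags in DMSO cells and 159.8 in siNTC cells. EPOR and NKG7 had 29.9 and 22.2 tags in DMSO cells alone, and CD8A, COL1A1 and OLIG2 81.2, 56.5 and 117 in siNTC cells alone.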

How the data were processed

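Chromatin from HL-60 cells was immunoprecipitated and sequenced, with 1 library per group. Per the submitters' processing notes, the tools were Trim Galore, cutadapt, FastQC, STAR 2.5.2b and HOMER, on GRCh38. Per the file headers, the deposited peak lists are HOMER peaks with a normalized tag count (the signal used here), region size, findPeaks score, total and control tags, fold over control and p-value. In the deposited lists every fold was at least 4 and the highest p-value was 9.98e-05. The control library and the scale of the signal are not given in the sources used here. The RNA tables deposited by the authors hold expected counts, which sum to 12679000 to 25168000 per library, and TPM, which was used for levels. Each score, fold and p-value is the authors' own and serves only within a list, and depth beyond the tag columns is unknown. Only the alternatives by score and by a fold of at least 8 set them across lists.

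Peaks were overlapped at 1 bp, paired by the most shared bases, and assigned to genes within 1000 bp of a RefSeq start (either gene end where no start was listed). Correlations are Spearman's, across peaks or genes of the same libraries, with no p. Python 3.11.15, numpy 2.4.6, pandas 2.3.3 and scipy 1.17.1 were used, and the pairing was tested on simulated data. The members and the 20 gene lists were chosen with earlier results of these data known. Named were the 5 shared pairs with the highest mean tags, the 8 highest peaks of each list alone, the 5 highest and 5 lowest ratios above the median of mean tags, the 10 highest genes of each list alone, up to 3 members of each gene list with the highest tags in both lists and up to 4 in 1 list, and fixed genes. A few genes that this rule names are not reported here. Alternatives covered the overlap rule, fold, list length, pairing, value and gene window. Peaks on X, Y and contigs entered 1 alternative only.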

Additional observations from a re-analysis of the deposited data

How the results depend on the processing

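The 1 bp overlap of the DMSO list with the siNTC list (72.3%) and of the siNTC list with the DMSO list (71.2%) was 44.8% and 43.7% with 50% of both peaks required, 55.1% and 53.7% with centres within 500 bp, 38.5% and 79.2% at a fold of at least 8, and 63.8% and 63.9% over the 8244 most tagged peaks of each list. The rho of 0.21 was 0.39 at 50% overlap, 0.29 by centres, 0.11 at a fold of at least 8, -0.0046 over the 8244 most tagged peaks, where its sign turned, 0.25 over merged regions and 0.0081 by score. The median log2 tag ratio of 0.90 was 0.51, 1.00, 0.31 and 0.59 under the first 4 of these and 0.98 by score, and the log2 width ratio of 0.58 was 0.44 at 50% overlap, 0.55 at a fold of at least 8 and 0.70 over the 8244 most tagged peaks. Genes marked in both lists, 85.1% of those marked in either, were 52.5% at a fold of at least 8, 56.2% over the 8244 most tagged peaks and 78.2% where the peak had to cover the start. The fold limit of 8 left out most siNTC peaks and few DMSO peaks, so the alternatives by fold compare unlike parts of the lists.

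Further alternatives were chosen after seeing the data. With siNTC peaks under the lowest DMSO tag count left out, the overlaps were 64.1% and 84.0%, rho 0.0705, the ratios 0.57 for tags and 0.53 for width, and the share of genes 83.6%. That share was 86.8% over protein-coding genes and 82.7% with either gene end. With control tags subtracted the median tag ratio was 1.04. The rho of DMSO tags with CG (-0.07) was -0.21 with GC share, -0.10 with tags per kb, -0.13 over protein-coding genes and -0.12 over genes marked in both lists, and that of siNTC tags (0.48) was 0.50 with tags per kb. The rho of DMSO tags with RNA (0.35) was 0.28 with untreated cells and 0.25 with total RNA, and that of siNTC tags (0.04) was -0.0082 over genes marked in both lists. All other alternatives run left the values within their intervals. The cause of these shifts was not tested.

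Each group is 1 library, so no result has a replicate check, and a difference of agent, of control and of depth between the DMSO and siNTC libraries cannot be told apart. No paired analysis was possible because each group holds a single library with no replicate number. The lowest DMSO peak had 17.1 tags, and weaker DMSO sites cannot be compared because the list holds none. The cause of this floor was not tested.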
